A study of Mus musculus with 30 samples.

Results

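Endurance treadmill exercise was compared with regular activity in cardiac myocytes that lacked 1 working copy of Dsp, the gene for desmoplakin. The 2 groups were chosen by their labels: 5 exercised and 5 regular-activity libraries, 10 of the 30 libraries in the series, and the comparison ran over all 15587 genes with enough reads to test. Both groups had the genotype Myh6-Cre:DspW/F at 6 months of age, in which Cre recombinase is driven by the Myh6 promoter, active in cardiac myocytes, and 1 of the 2 Dsp alleles carries the loxP sites that Cre recombines. Exercised and regular-activity wild-type myocytes of the same age, 5 libraries each, were set beside them. The other 10 libraries were wild type and Myh6-Cre:DspW/F at 3 months. The labels give 3 months beside the treadmill exercise without saying whether that is its length, and do not give the Cre status of the wild type or say which libraries came from separate animals, so p-values measure the spread between libraries.

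Desmoplakin joins the desmosomes of the intercalated disc, the junction that holds neighbouring cardiac myocytes together, to the intermediate filaments of the cell. Loss of function of desmosome genes is a cause of arrhythmogenic cardiomyopathy, in which myocytes are lost and replaced by fibrous and fatty tissue, and endurance exercise is a known modifier of that disease. In healthy hearts endurance training is known for physiological growth, a shift in fuel use and changes in calcium handling and mitochondria. Immediate early genes and heat shock genes are transcribed within minutes of a stimulus to the cell.

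RNA was total RNA depleted of ribosomal RNA, and each value started as a count of reads per gene. Counts were scaled here to CPM, the number per 1000000 reads of a library size adjusted by TMM, a scaling factor for each library. The TMM factors were 0.974 to 1.14 in the regular-activity and 0.802 to 1.04 in the exercised heterozygotes. CPM are therefore not shares of the counted reads. Counted reads, in units of 1000000, numbered 20.2 ± 2.79 in the regular-activity heterozygotes and 15.7 ± 1.75 in the exercised ones (mean ± SD, n = 5 each). The number of genes with a read was 22243 ± 433 and 20003 ± 1202 (two-sided exact permutation test, p = 0.00794, the smallest that 5 against 5 allows, adjusted p = 0.0265 over 10 library measures). Of 23 spike-in rows, 18 held a value in each regular-activity heterozygote library and 0 in each exercised library of either genotype, so exercise and whatever else differed between those sets of libraries cannot be told apart. Exercised heterozygote 4 stood apart: the biological coefficient of variation of the exercised group was 30.3% with it and 22.2% without it, against 22.4% in the regular-activity group. Regular-activity heterozygotes 2 and 4 and exercised heterozygote 4 had high Xist. Ventricular myocyte markers averaged 11.2 to 11.4 log2 CPM in the regular-activity and 11.1 to 11.6 in the exercised libraries, far above the fibroblast (2.63 to 5.25) and macrophage (0.0508 to 2.75) markers over the 10 libraries, so the markers of the labelled cell type were present.

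Dsp itself read 620.4, 653, 593, 581 and 679.8 CPM in regular-activity heterozygotes 1 to 5 and 939, 822, 869.5, 903 and 705 CPM in exercised heterozygotes 1 to 5. Every exercised library lay above every regular-activity library, yet the difference of 0.44 log2 did not pass the test over all genes (SE 0.19, adjusted p = 0.162). The genotypes overlapped at regular activity: in the wild type Dsp was 636 to 1021 CPM at regular activity and 928 to 1907 CPM after exercise, a rise of 0.99 log2 (adjusted p = 0.00106). The test of the difference between the exercise effects of the genotypes was not passed (interaction log2 difference -0.56 ± 0.27 SE, adjusted p = 0.9994). A different response of Dsp in the 2 genotypes was thus not established. The counts cover the whole gene, so they do not show which allele the reads came from.

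In exercised heterozygous myocytes the genes that fell included 15 of 34 immediate early genes, 32 of 68 ribosomal protein genes, 19 of 77 nuclear genes of oxidative phosphorylation and the inducible HSP70 genes Hspa1a and Hspa1b. Those that rose included 9 of 13 mitochondrially encoded, 11 of 32 sarcomere and 8 of 29 calcium-handling genes. Of the 15587 genes tested, 833 were higher and 542 lower after exercise (edgeR quasi-likelihood test, Benjamini-Hochberg adjusted p under 0.05), which is 8.82% of the genes, 5.34% higher and 3.48% lower. The median absolute difference among them was 0.549 log2, and 101 of the higher and 79 of the lower genes differed by more than 1 log2. In 547 of the higher genes every exercised library lay above every regular-activity library, and in 379 of the lower ones every exercised library lay below; over all genes tested such separations were 5.1% and 4.02%. The split changed with base composition and transcript length: with each library's trends on both removed, 915 genes were higher and 252 lower, so that 78.4% of the called genes were higher in place of 60.6%. Lower genes were the more frequent without a low-count filter, at 389 higher and 427 lower (47.7% higher), and without both libraries that stand apart, at 765 higher and 845 lower (47.5%). Without single libraries 460 to 831 genes were higher and 372 to 609 lower. Lower genes outnumbered higher ones without regular-activity heterozygote 5 (545 higher, 581 lower), exercised heterozygote 1 (500 and 572) or exercised heterozygote 3 (573 and 609). The lowest counts of higher genes were 460, 485, 500, 525, 536 and 545, without exercised heterozygotes 2, 5 and 1 and regular-activity heterozygotes 4, 3 and 5, and without regular-activity heterozygote 4 the genes called in both directions were 897 in place of 1375.

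**Figure D1:**
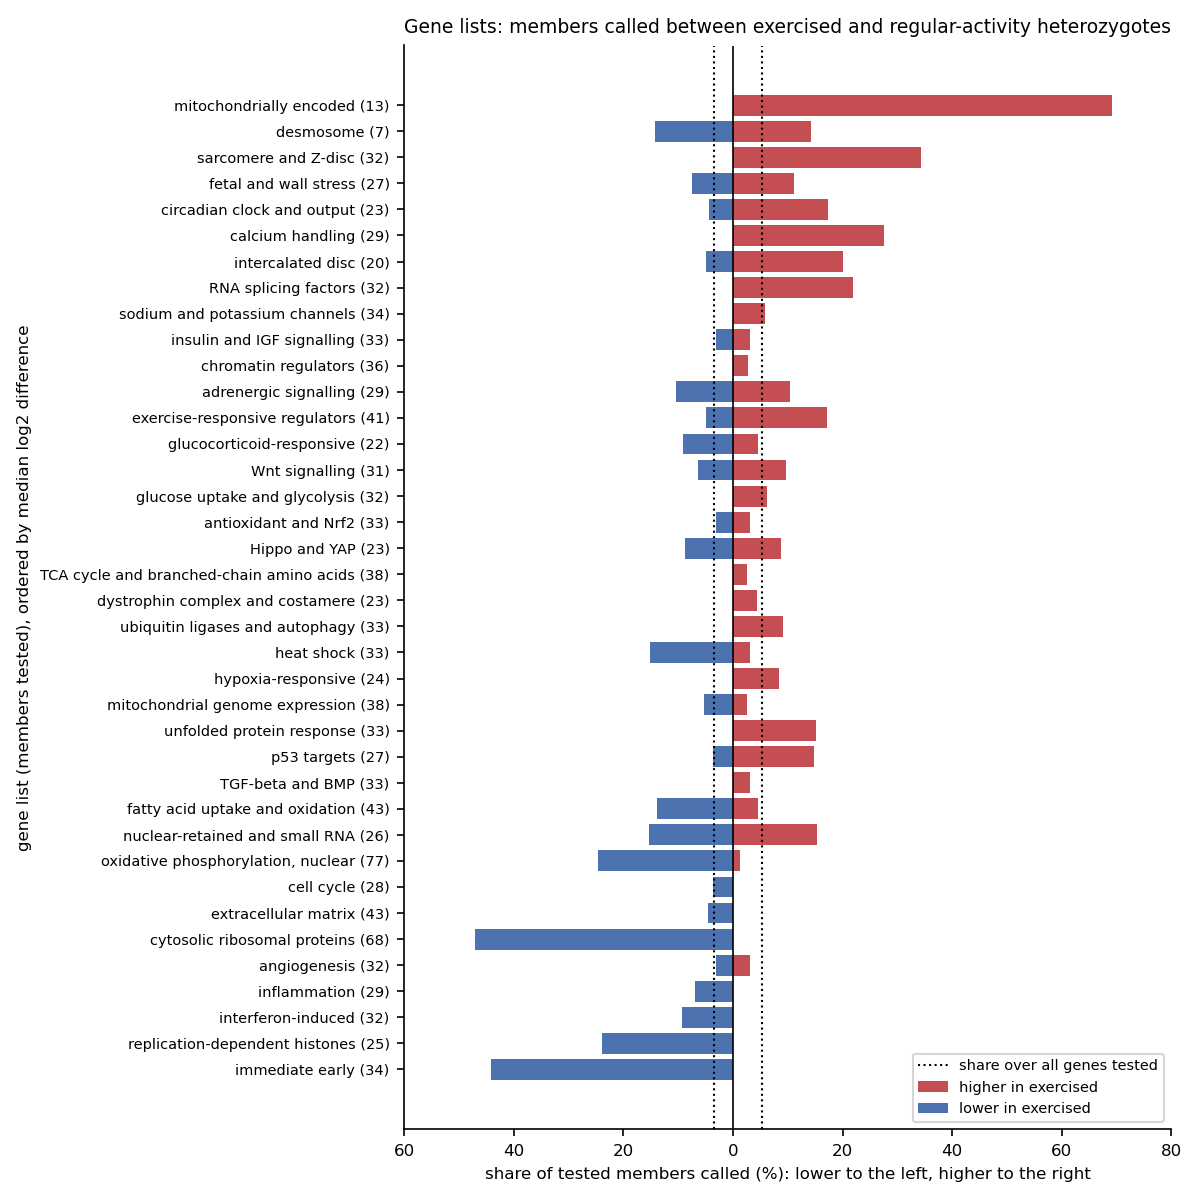
Share of tested members, in percent, called lower (left of 0) and higher (right of 0) after exercise in heterozygous myocytes, for gene lists ordered by their median log2 difference; dotted lines mark the shares over all genes tested, 3.48% lower and 5.34% higher. The immediate early (15 of 34), ribosomal protein (32 of 68) and histone (6 of 25) lists hold called genes on the lower side alone, and the sarcomere list (11 of 32) on the higher side alone.

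Many immediate early genes fell after exercise. Of 34 tested, 15 fell and 0 rose, against 3.48% of all genes that fell, and their median difference was -0.877 log2 against -0.00372 for all genes tested. In 16 of the 34 every exercised library lay below every regular-activity library, against 4.02% of all genes tested. The mean log2 CPM of the list was 4.91 to 5.02 at regular activity and 3.85 to 4.41 after exercise, and in the wild type 17 of the 34 fell, where 9.69% of all genes were called, 4.64% higher and 5.05% lower. The promoters of 3 of these genes and of 2 heat shock genes are printed because these 5 genes fell with their groups apart and the letters searched for are known from promoters of immediate early and heat shock genes. Each line holds the 250 bases before the RefSeq transcription start, 5′ to 3′ on the gene's strand (GRCm38.p6), and capitals mark TGACG, the core of the cAMP response element (CRE), on either strand in the first 3 and GAANNTTC, a pair of heat shock element units, in the last 2. The windows are chr8:84978749-84978998, minus strand, for Junb, chr12:85473640-85473889, plus strand, for Fos, chr1:191183334-191183583, minus strand, for Atf3, chr17:34972157-34972406, minus strand, for Hspa1a and chr5:135887669-135887918, plus strand, for Hspb1.
Junb: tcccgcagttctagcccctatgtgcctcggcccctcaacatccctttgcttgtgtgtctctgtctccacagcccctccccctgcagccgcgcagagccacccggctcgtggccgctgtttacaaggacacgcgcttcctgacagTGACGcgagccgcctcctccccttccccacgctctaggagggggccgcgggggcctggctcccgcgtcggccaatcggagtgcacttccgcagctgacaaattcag
Fos: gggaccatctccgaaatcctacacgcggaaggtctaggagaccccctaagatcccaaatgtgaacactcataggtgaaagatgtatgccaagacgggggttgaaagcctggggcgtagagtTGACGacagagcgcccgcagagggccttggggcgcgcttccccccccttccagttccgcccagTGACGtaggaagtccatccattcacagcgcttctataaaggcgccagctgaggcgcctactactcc
Atf3: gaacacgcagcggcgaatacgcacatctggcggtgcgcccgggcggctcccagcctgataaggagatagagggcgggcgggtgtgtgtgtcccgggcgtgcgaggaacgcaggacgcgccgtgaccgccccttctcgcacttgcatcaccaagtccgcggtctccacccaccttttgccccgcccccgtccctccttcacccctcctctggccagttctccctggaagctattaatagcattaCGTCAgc
Hspa1a: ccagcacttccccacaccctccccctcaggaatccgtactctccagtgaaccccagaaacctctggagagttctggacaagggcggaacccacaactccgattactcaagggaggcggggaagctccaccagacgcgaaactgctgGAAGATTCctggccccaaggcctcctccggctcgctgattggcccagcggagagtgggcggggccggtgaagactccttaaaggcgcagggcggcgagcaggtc
Hspb1: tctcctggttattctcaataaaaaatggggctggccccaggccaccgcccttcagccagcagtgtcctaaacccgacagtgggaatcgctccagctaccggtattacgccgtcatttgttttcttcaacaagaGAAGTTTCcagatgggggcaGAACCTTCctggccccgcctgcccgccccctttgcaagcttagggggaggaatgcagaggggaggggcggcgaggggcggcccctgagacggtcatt
The TGACG letters stood once in the Junb and Atf3 windows and at 2 positions in that of Fos. Among the 10659 tested genes with a promoter in the table, 26.6% held them. The share was 48.1% among the 27 tested immediate early genes with a promoter and 53.8% (7 of 13) among those that fell, and it was 31% for all genes called higher and 30.6% for all called lower. Similar shares held outside that list. For TGACG they were 44% of 50 tested ribosomal protein genes and 52.4% (11 of 21) of those that fell. Among 26 tested heat shock genes it was 46.2%, and 2 of the 4 that fell held the letters. The Hspa1b window differed from that of Hspa1a at 3 of 250 bases. GAANNTTC was in 4.87% of all windows, in 26.9% of the 26 tested heat shock genes with a window and in 3 of the 4 that fell. These are matches of letters and were not tested for binding.

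Junb, a partner of Fos in the AP-1 transcription factor, read 208, 210, 137, 179 and 147 CPM at regular activity and 63, 62.5, 72.9, 46.1 and 57 CPM after exercise. The 2 groups lay far apart, and Junb fell by a factor of 2.92 (log2 difference -1.55 ± 0.18 SE, adjusted p = 1.87e-06). Atf3, a stress-induced transcription factor, went from 95.6, 91, 54.8, 82.6 and 75.3 CPM to 22.9, 24.3, 30.9, 17.3 and 35.2 CPM, again with every exercised library below (log2 difference -1.61 ± 0.34 SE, adjusted p = 0.00315). Gadd45g, a growth arrest and DNA damage-inducible gene outside the immediate early list, read 48.2, 66.3, 35.6, 54.4 and 48.8 CPM at regular activity and 16.2, 12.4, 19.3, 22 and 19.4 CPM after exercise. All 5 exercised libraries were again the lower ones (log2 difference -1.505 ± 0.22 SE, adjusted p = 5.61e-05). Fos read 351, 341, 228, 304 and 204 CPM against 102, 124, 91.6, 128 and 179.5 CPM, with the groups apart (log2 difference -1.19 ± 0.33 SE, adjusted p = 0.0237), and its call was lost without regular-activity heterozygote 1, 2 or 4 (adjusted p up to 0.0556).

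Other immediate early genes fell as well. Ier5 fell by 1.29 log2 (adjusted p = 2.84e-04), Btg2, an antiproliferative gene, by 0.94 (adjusted p = 0.00166), Rhob, a small GTPase, by 0.83 (adjusted p = 2.32e-05) and Cyr61, a matricellular protein also known as Ccn1, by 1.03 (adjusted p = 0.00467). Dusp1, a MAP kinase phosphatase, was 245 to 298 CPM at regular activity and 116 to 207 CPM after exercise (log2 difference -0.78, adjusted p = 0.00452). Zfp36, which promotes decay of cytokine mRNA, was 121 to 212 CPM and 60.5 to 111 CPM (log2 difference -0.98, adjusted p = 0.0133), and the orphan nuclear receptor Nr4a1 63.7 to 113 and 24.3 to 46 CPM (log2 difference -1.19, adjusted p = 0.0072). None of these 3 pairs of ranges overlapped. Jun, Jund and Klf2 passed the test with adjusted p = 0.0459, 0.0439 and 0.0251 and lost the call without any 1 of several libraries: for Jun without regular-activity heterozygote 1, 2, 3 or 4 or exercised heterozygote 1, 2 or 4 (adjusted p up to 0.117), for Jund without regular-activity heterozygote 1, 2, 3 or 4 or exercised heterozygote 1 or 2 (up to 0.113) and for Klf2 without regular-activity heterozygote 3 or 4 or exercised heterozygote 1 or 4 (up to 0.0871). With the composition and length trends removed Jun was -0.33 (adjusted p = 0.305), Klf2 -0.61 (adjusted p = 0.166) and Jund, with a change of sign, 0.04 (adjusted p = 0.942), and 11 of the 34 genes had a lower call under that setting. Egr1, another member, was not called (log2 difference -0.72, adjusted p = 0.144).

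**Figure D2:**
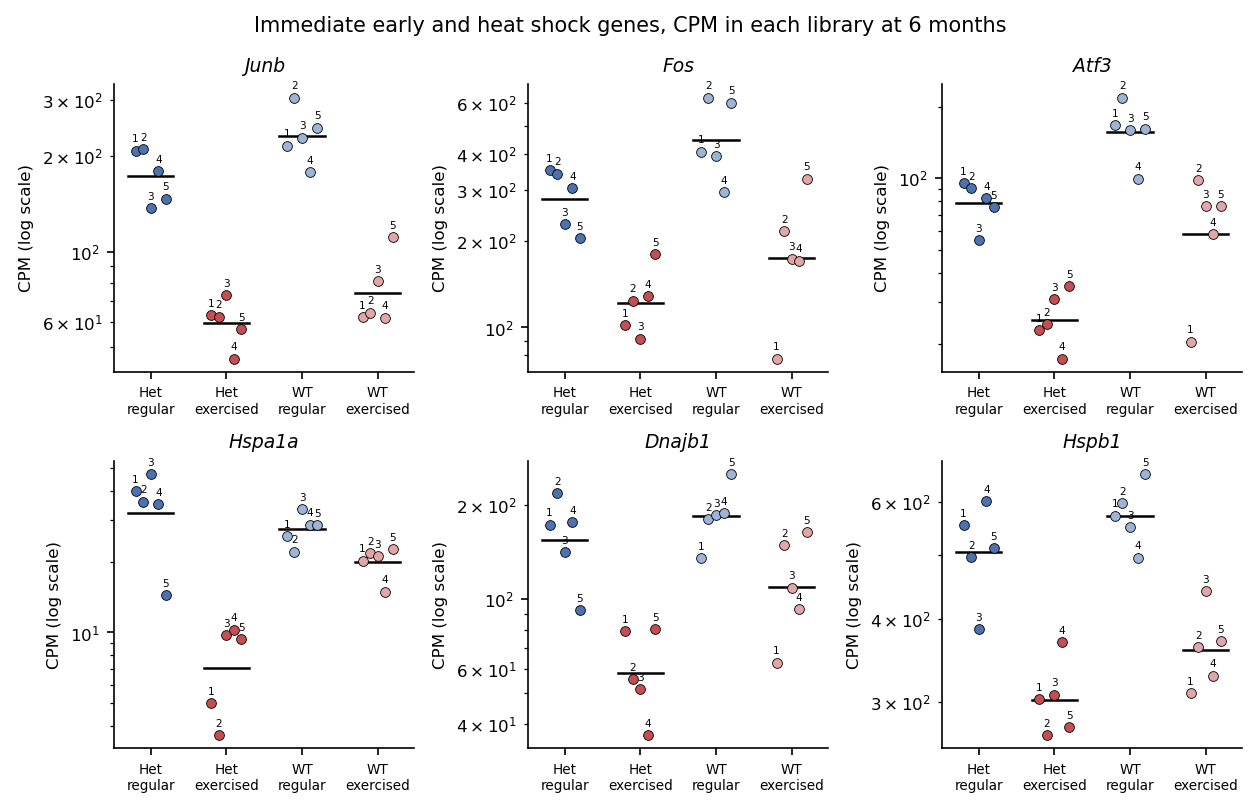
CPM on a log axis of Junb, Fos, Atf3, Hspa1a, Dnajb1 and Hspb1 in each library at 6 months, by genotype and activity; points carry replicate numbers and bars are geometric means. In heterozygotes the exercised libraries lie below the regular-activity libraries in all 6 genes, for Junb at 46.1 to 72.9 against 137 to 210 CPM.

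Among the heat shock proteins, Hspa1a, Hspa1b, Dnajb1, Hspb1 and Hspa8 fell and Hspb7 rose. Of 33 tested members, 5 fell and 1 rose, against 3.48% and 5.34% of all genes tested. The list as a whole did not move: its median was -0.0261 log2 against -0.00372 for all genes tested, and 15 of the 33 differences were positive. Hspa1a, an inducible HSP70, read 39.7, 35.9, 47, 35 and 14.4 CPM at regular activity and 5.02, 3.66, 9.72, 10.3 and 9.38 CPM after exercise. The groups did not overlap, although regular-activity heterozygote 5 was the lowest of its group, and Hspa1a fell by a factor of 4.50 (log2 difference -2.17 ± 0.39 SE, adjusted p = 8.15e-04). Its neighbour and near-identical copy Hspa1b read 86.8, 73, 121, 64.4 and 39.3 CPM against 14.5, 20.3, 23.7, 21.9 and 18 CPM (log2 difference -1.97 ± 0.39 SE, adjusted p = 0.00203), and reads shared by the pair make the split between them uncertain. Dnajb1, the HSP40 partner of HSP70, fell from 173, 219, 142, 176 and 92.4 CPM to 79.2, 55.5, 51.7, 36.8 and 80.2 CPM (log2 difference -1.404 ± 0.29 SE, adjusted p = 0.00258). Hspb1, the small heat shock protein HSP27, fell from between 386 and 603 to between 268 and 369 CPM (log2 difference -0.74, adjusted p = 1.83e-04), a difference of -0.43 (adjusted p = 0.0231) with the composition and length trends removed. Hspa8, the constitutive HSP70, had adjusted p = 0.0449 and lost its call without regular-activity heterozygote 2, 4 or 5 or exercised heterozygote 2, 3 or 5 (adjusted p up to 0.142) and with the trends removed (-0.35, adjusted p = 0.088). Hspb7, the cardiovascular small heat shock protein that binds filamin, went the other way, from 2042, 2142, 1163, 2004 and 1648 CPM to 2806, 2878, 2858, 4121 and 3706 CPM, with every exercised library above (log2 difference 0.86 ± 0.15 SE, adjusted p = 2.36e-04). In the wild type 8 members of the list rose and 1 fell, and Hspa1a and Hspa1b differed by -0.46 and -0.09 log2. The test of the difference between genotypes was not passed for either (interaction log2 difference -1.71, adjusted p = 0.76, and -1.88, adjusted p = 0.553).

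In the unfolded protein response list 5 of 33 tested genes rose and 0 fell, against 5.34% and 3.48% of all genes, while the list median was -0.0651 log2 and 18 of the 33 differences were negative. The 5 were 4 chaperones or folding enzymes of the endoplasmic reticulum and Atf6. Dnajb9, a co-chaperone of the reticulum, rose from 16.5, 14.5, 15.2, 15.1 and 16.2 CPM to 31.5, 36.4, 30.6, 29.3 and 34.3 CPM. Each group was tight and the groups were far apart (log2 difference 1.06 ± 0.16 SE, adjusted p = 4.8e-05). Pdia3, a disulfide isomerase, read 20.1, 20.1, 18.9, 19.4 and 23.9 CPM against 38.3, 43.2, 43.4, 30.5 and 45.9 CPM, again without overlap (log2 difference 0.97 ± 0.18 SE, adjusted p = 7.04e-04). Calreticulin, Calr, read 212, 232, 186, 191 and 198 CPM against 314, 386, 322, 230.2 and 418 CPM, with exercised heterozygote 4 below the highest regular-activity library (log2 difference 0.71 ± 0.17 SE, adjusted p = 0.00647). Atf6, the membrane-bound transcription factor of the pathway, rose from between 190.5 and 255 to between 306 and 444 CPM (log2 difference 0.66, adjusted p = 4.61e-05). Canx, calnexin, was called with adjusted p = 0.0282 and lost the call without regular-activity heterozygote 1, 3, 4 or 5 or exercised heterozygote 1, 2, 3 or 5 (adjusted p up to 0.118) and with the composition and length trends removed (0.34, adjusted p = 0.0521). Hspa5, the main chaperone of the reticulum, and the stress factors Ddit3 and Xbp1 were not called, at -0.11, -0.07 and -0.23 log2.

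Several genes of the contractile apparatus rose. Of 32 tested sarcomere and Z-disc genes 11 rose and 0 fell, against 5.34% and 3.48% of all genes tested, with a median of 0.289 log2. In 7 of the 32 every exercised library lay above, against 5.1% of all genes tested. Ldb3, the Z-disc protein Cypher, read 1286, 1423, 1082, 1224 and 1182 CPM at regular activity and 2045, 1942, 1691, 1748 and 1829 CPM after exercise. The lowest exercised library was above the highest regular-activity one (log2 difference 0.58 ± 0.08 SE, adjusted p = 3.32e-05). Nexn, nexilin, which ties Z-disc actin to the junctional membrane, went from 83.1, 68.9, 76.8, 87.7 and 144 CPM to 208, 165, 162, 214 and 162 CPM (log2 difference 0.99 ± 0.18 SE, adjusted p = 5.14e-04). Myoz2, calsarcin-1, which tethers calcineurin to the Z-disc, went from 632, 675, 564, 807 and 929 CPM to 1115, 1105, 1198, 1314 and 1250.1 CPM (log2 difference 0.73 ± 0.13 SE, adjusted p = 4.12e-04). In both genes the groups were apart, with regular-activity heterozygote 5 the closest to the exercised libraries. Tnnt2, cardiac troponin T, rose from between 2708 and 3517 to between 3777 and 5464 CPM (log2 difference 0.598, adjusted p = 6.58e-04), and Tnnc1, troponin C, differed by 0.55 (adjusted p = 0.00659) with overlapping groups. Actn2, α-actinin of the Z-disc, had adjusted p = 0.018 and lost its call without regular-activity heterozygote 3 or 4 or exercised heterozygote 1 (adjusted p up to 0.105); its difference was 0.33 log2, and 0.54 (adjusted p = 0.00136) with the composition and length trends removed. Titin, Ttn, was not called (0.29 log2, adjusted p = 0.274). With single libraries left out 7 to 11 of the list were called higher (7 without regular-activity heterozygote 3 or 4), 1 was called lower without exercised heterozygote 4, in the wild type 9 rose and 0 fell, and with the composition and length trends removed 11 rose.

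Among calcium-handling genes 8 of 29 tested rose and 0 fell, against 5.34% and 3.48% of all genes tested, with a median of 0.222 log2. Jph1, junctophilin 1, which bridges the surface membrane and the sarcoplasmic reticulum, read 24.9, 26.2, 24.1, 18.9 and 21.8 CPM at regular activity and 43.9, 38.6, 39.2, 42.3 and 39.7 CPM after exercise. Every exercised library was well above every regular-activity library, and Jph1 rose by a factor of 1.75 (log2 difference 0.81 ± 0.12 SE, adjusted p = 3.71e-05). The wild type read 30.9 to 38.0 CPM at regular activity, above the heterozygotes (edgeR, genotype log2 difference -0.54, adjusted p = 0.0496). After exercise it read 29.9 to 46.1 CPM, a difference that was not called (edgeR, 0.31 log2, adjusted p = 0.0948). The interaction for Jph1 was not called either (0.50 log2, adjusted p = 0.818). Ryr2, the release channel of the sarcoplasmic reticulum, rose from between 1756 and 2274 to between 2411 and 2887 CPM (log2 difference 0.45, adjusted p = 0.00444), and Casq2, which buffers calcium inside it, from between 873 and 1323 to between 1436 and 1701 CPM (log2 difference 0.47, adjusted p = 0.00866). Atp2b1, a calcium pump of the surface membrane, rose from between 41.8 and 51.2 to between 58.4 and 64.8 CPM (log2 difference 0.44, adjusted p = 8.97e-04). In all 3 genes the ranges were apart. The other 4 called members were Calm2, Camk2d, S100a1 and Slc8a1. Atp2a2, the calcium pump of the sarcoplasmic reticulum, and its inhibitor Pln were not called, at 0.04 and 0.17 log2. The count was 4 to 10 with single libraries left out, at 4 without regular-activity heterozygote 3 or exercised heterozygote 3 and 5 without regular-activity or exercised heterozygote 2, and 9 with the composition and length trends removed. In the wild type 5 of the list rose and 0 fell.

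**Figure D3:**
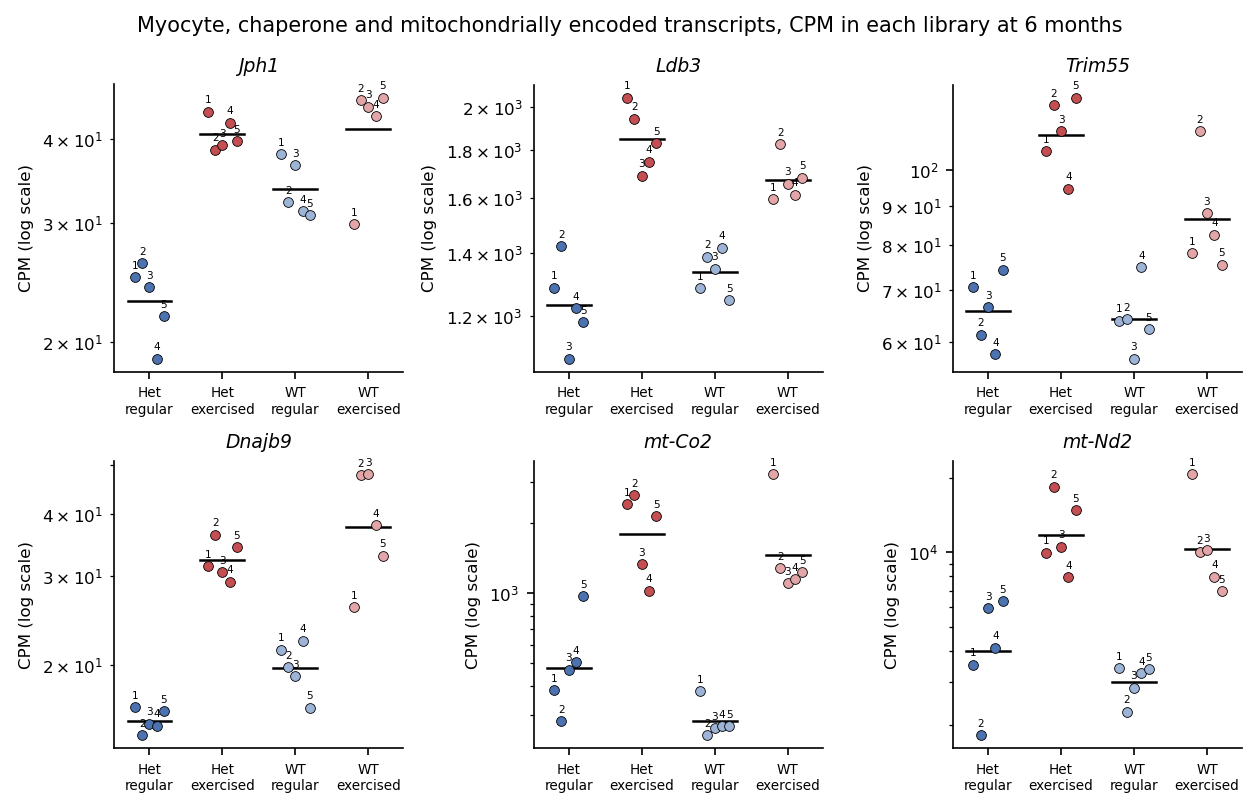
CPM on a log axis of Jph1, Ldb3, Trim55, Dnajb9, mt-Co2 and mt-Nd2 in each library at 6 months, by genotype and activity; points carry replicate numbers and bars are geometric means. In heterozygotes the exercised libraries lie above the regular-activity libraries in all 6 genes, for Jph1 at 38.6 to 43.9 against 18.9 to 26.2 CPM.

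Regulators of splicing that are active in striated muscle moved the same way: 7 of 32 tested splicing factors rose and 0 fell. Over all genes tested 5.34% rose and 3.48% fell, and the median of the list was 0.205 log2. Rbfox2 rose from between 133 and 188 to between 187 and 233 CPM (log2 difference 0.44, adjusted p = 0.00243) and Mbnl2 from between 158 and 197 to between 229 and 243 CPM (log2 difference 0.42, adjusted p = 0.00254). Celf2, an RNA-binding splicing factor, rose from between 62.6 and 94.7 to between 98.2 and 117 CPM (log2 difference 0.504, adjusted p = 0.00394). For Mbnl2 and Celf2 the groups did not overlap, and for Rbfox2 the lowest exercised library lay just under the highest regular-activity one. Trim55, the sarcomere-bound ubiquitin ligase MuRF2, read 70.6, 61.3, 66.6, 57.8 and 74.4 CPM against 106, 121, 112, 94.7 and 124 CPM, again with the groups apart (log2 difference 0.75 ± 0.10 SE, adjusted p = 1.53e-05). It was 1 of 3 members of a list of 33 ubiquitin ligases and autophagy genes that rose, with 0 that fell. That is 9.09% called, close to the 8.82% of all genes tested. The other 2, the ligase Fbxo32 (adjusted p = 0.0452) and the protease Ctsb (adjusted p = 0.0137), lost their calls in 9 and 5 of the 10 fits that left out 1 heterozygote library: Fbxo32 in all but that without regular-activity heterozygote 2 (adjusted p up to 0.143), and Ctsb without regular-activity heterozygote 4 or 5 or exercised heterozygote 1, 2 or 5 (up to 0.0724). With the composition and length trends removed neither Celf2 (0.38, adjusted p = 0.0992) nor Fbxo32 (0.34, adjusted p = 0.144) was called.

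Of the 7 desmosome genes tested, Dsg2 was called higher and Jup lower, which is 28.6% of them against 8.82% of all genes tested. Jup, plakoglobin, read 261, 250.5, 243, 241 and 227 CPM at regular activity and 199, 198, 190.1, 168 and 165 CPM after exercise, with every exercised library below (log2 difference -0.41 ± 0.11 SE, adjusted p = 0.0185), and with the composition and length trends removed its difference was -0.12 (adjusted p = 0.63). Dsg2, desmoglein 2, read 59.3, 47.5, 46.5, 38.8 and 36.1 CPM against 78.4, 63.8, 62.4, 56.1 and 60.8 CPM (log2 difference 0.49 ± 0.16 SE, adjusted p = 0.045), and its call was lost without regular-activity heterozygote 2, 3, 4 or 5 or exercised heterozygote 1, 2, 3 or 5 (adjusted p up to 0.185), under both other scalings and with the trends removed (0.47 (adjusted p = 0.0749)). Pkp2, plakophilin 2, was 186 to 269 and 142 to 244 CPM (log2 difference -0.28, adjusted p = 0.225). Dsc2, desmocollin 2, was 46.6, 37.7, 42, 47.9 and 37.7 and 60.8, 64.8, 56.8, 33.8 and 58.1 CPM (log2 difference 0.37, adjusted p = 0.0881), with exercised heterozygote 4 the lowest of all 10 libraries, and 0.504 (adjusted p = 0.00679) without that library. Gja1, connexin 43, was 452 to 739 and 233 to 504 CPM (log2 difference -0.34, adjusted p = 0.491). Of 20 genes of a wider intercalated disc list 4 rose and 1 fell, or 25% called. Ank3, ankyrin G, which anchors sodium channels, rose from between 61.8 and 76 to between 96.4 and 114 CPM (log2 difference 0.63, adjusted p = 9.15e-05), and Cdh2, N-cadherin, from between 251 and 335 to between 359 and 432 CPM (log2 difference 0.45, adjusted p = 0.00247). The calls of Nrap and Xirp2, both actin-binding proteins of the disc, and of Ctnnb1, β-catenin, did not hold without single libraries: Nrap without exercised heterozygote 4 (adjusted p = 0.0548), Xirp2 without regular-activity heterozygote 1, 2, 3 or 4 or exercised heterozygote 4 or 5 (up to 0.29) and Ctnnb1 without regular-activity heterozygote 2 or 3 (up to 0.0812). Xirp2 was 0.31 (adjusted p = 0.29) without exercised heterozygote 4, and with the trends removed it was 0.73 (adjusted p = 0.0889) and Ctnnb1 -0.200 (adjusted p = 0.18).

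Among 41 tested regulators known to respond to exercise, 7 rose and 2 fell, or 22% called against 8.82% of all genes tested. Without regular-activity heterozygote 5 or exercised heterozygote 2, 4 rose. Mef2c, a transcription factor of muscle differentiation, read 100, 80.1, 88.8, 75.6 and 68.1 CPM at regular activity and 117, 155, 139, 125 and 149 CPM after exercise. The groups did not overlap (log2 difference 0.73 ± 0.12 SE, adjusted p = 9.54e-05). Prkaa2, the α2 catalytic subunit of AMP-activated kinase, rose from 153, 153, 121, 128 and 119.8 CPM to 196, 220.1, 201, 169.6 and 223 CPM (log2 difference 0.58 ± 0.10 SE, adjusted p = 3.76e-04). Esrrg, an oestrogen-related receptor that drives oxidative genes, rose from between 35.2 and 44.6 to between 41.7 and 70 CPM (log2 difference 0.64, adjusted p = 0.00179). Cited4, a transcriptional co-regulator known from exercised mouse hearts, was 34.9, 26.8, 15.8, 36.9 and 29.2 CPM at regular activity and 7.20, 18, 15.7, 11.5 and 11.9 CPM after exercise, a fall with overlapping groups (log2 difference -1.16 ± 0.25 SE, adjusted p = 0.00314) that was -0.71 (adjusted p = 0.0746) with the composition and length trends removed. Ppargc1a, the coactivator PGC-1α of mitochondrial biogenesis, read 110.2, 117, 127, 136 and 128 CPM and 345, 196, 158, 194 and 203 CPM. Every exercised library was above, with exercised heterozygote 1 the highest (log2 difference 0.83 ± 0.25 SE, adjusted p = 0.036), and the call was lost without regular-activity heterozygote 1, 2, 3, 4 or 5 or exercised heterozygote 1, 2 or 5 (adjusted p up to 0.179) and with the trends removed (0.74, adjusted p = 0.0593). Mef2a rose with adjusted p = 0.00597 and lost the call without exercised heterozygote 2 (adjusted p = 0.0563).

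In fatty acid uptake and oxidation 2 of 43 tested genes rose and 6 fell, against 5.34% and 3.48% of all genes tested, and 6 rose when exercised heterozygote 4 was left out. Acadl, which starts β-oxidation of long-chain fatty acids, read 178, 158, 168, 143 and 179 CPM at regular activity and 289, 264, 294, 234 and 297 CPM after exercise. Every exercised library lay above (log2 difference 0.74 ± 0.10 SE, adjusted p = 1.41e-05). Acads, its short-chain counterpart, read 214, 220.1, 226, 206 and 207 CPM against 159, 136, 159.6, 76.4 and 127 CPM. Here every exercised library lay below (log2 difference -0.71 ± 0.16 SE, adjusted p = 0.00382). Lpl, which frees fatty acids from circulating lipoproteins, rose from between 2320.4 and 3202 to between 3377 and 4066 CPM (log2 difference 0.56, adjusted p = 0.00197), and Acaa1a, a peroxisomal thiolase, fell from between 37.1 and 50.3 to between 25.7 and 31.5 CPM (log2 difference -0.51, adjusted p = 0.0034). With the composition and length trends removed the list held 3 higher and 2 lower genes, and the calls of Acads (-0.38, adjusted p = 0.174) and Acaa1a (-0.32, adjusted p = 0.121) were lost. In glucose uptake and glycolysis 2 of 32, or 6.25%, rose and 0 fell: Hk1, the hexokinase that commits glucose to the cell, went from 237, 229, 177, 178 and 162 CPM to 300.3, 339, 316, 352 and 306 CPM without overlap (log2 difference 0.72 ± 0.11 SE, adjusted p = 1.06e-04), and Hk2 had adjusted p = 0.037, lost without regular-activity heterozygote 1, 3, 4 or 5 or exercised heterozygote 1, 2, 3 or 5 (adjusted p up to 0.168). With the trends removed 7 of that list rose. Among 29 adrenergic signalling genes 3 rose and 3 fell, and 1 rose without regular-activity heterozygote 5 or exercised heterozygote 1, 2 or 5. Adrb1, the β1-adrenergic receptor, fell from 23.6, 20.9, 20.3, 26.4 and 20 CPM to 12.6, 15.1, 16.9, 8.75 and 16 CPM with the groups apart (log2 difference -0.69 ± 0.16 SE, adjusted p = 0.00606), and Ppp1r3a, which targets protein phosphatase 1 to glycogen, rose from between 188 and 250.4 to between 263 and 329.6 CPM (log2 difference 0.53, adjusted p = 0.00538). Neither was called with the trends removed, at -0.39 (adjusted p = 0.163) for Adrb1 and 0.29 (adjusted p = 0.146) for Ppp1r3a.

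Most transcripts encoded by the mitochondrial genome rose, while 19 of 77 nuclear genes for the same respiratory complexes fell. Of 13 mitochondrially encoded genes tested, 9 rose and 0 fell, against 5.34% and 3.48% of all genes tested, with a median of 1.18 log2. mt-Co2, a subunit of complex IV, read 383, 282, 469.8, 507 and 973 CPM at regular activity and 2412, 2635, 1332, 1028 and 2140.4 CPM after exercise. The groups did not overlap, and exercised heterozygote 4 was the lowest exercised library (log2 difference 1.87 ± 0.32 SE, adjusted p = 5.27e-04). mt-Nd2, a subunit of complex I, read 3516, 1825, 5957, 4118 and 6345 CPM against 9972, 18439, 10549, 7933 and 14813 CPM, again apart (log2 difference 1.504 ± 0.31 SE, adjusted p = 0.00278). mt-Nd6, the complex I gene on the other strand of the mitochondrial genome, rose from between 126 and 456 to between 767 and 1528 CPM (log2 difference 1.898, adjusted p = 6.58e-04) and mt-Nd5 from between 2357 and 5756 to between 7073 and 12522 CPM (log2 difference 1.17, adjusted p = 0.00136). These 4 were called whichever single library was left out. The other 5 were not: mt-Nd4 and mt-Cytb lost the call without regular-activity heterozygote 1, 2 or 4 or exercised heterozygote 1, 2 or 5 (adjusted p up to 0.115 and 0.112), mt-Atp6 without regular-activity heterozygote 1, 2, 4 or 5 or exercised heterozygote 2 or 5 (up to 0.146), mt-Nd3 in all fits but those without regular-activity heterozygote 3 or exercised heterozygote 4 (up to 0.181), and mt-Nd4l in all but that without exercised heterozygote 4 (up to 0.193). The count of called genes ran from 4 to 10; it was 4 without regular-activity heterozygote 1, 2 or 4 or exercised heterozygote 2 or 5, and 5 without exercised heterozygote 1. Removal of the composition and length trends ended the calls of mt-Atp6 (1.14, adjusted p = 0.0697), mt-Nd3 (0.701, adjusted p = 0.344) and mt-Nd4l (1.32, adjusted p = 0.105), and mt-Nd3 was not called under either other scaling. The mitochondrially encoded share of all counted reads was 19.9% ± 6.32 at regular activity and 29.4% ± 6.12 after exercise (SD, n = 5 each; two-sided exact permutation test, p = 0.0476, adjusted p = 0.0794 over the 10 library measures). Of the 13, 12 rose in the wild type. Nuclear copies of mitochondrial genes can share reads with them.

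The nuclear list of oxidative phosphorylation held 77 tested genes, of which 19 fell and 1, Cox6b1, rose, with a median of -0.226 log2. Over all genes tested 3.48% fell and 5.34% rose. Cox8a, a complex IV subunit, read 183, 194, 187, 212 and 215 CPM at regular activity and 119, 112, 109, 119 and 93.9 CPM after exercise. No library overlapped (log2 difference -0.84 ± 0.12 SE, adjusted p = 2.32e-05). Uqcrfs1, the Rieske iron-sulfur protein of complex III, fell from 799, 852, 714, 837 and 759 CPM to 478, 460, 561, 346 and 437 CPM, also without overlap (log2 difference -0.796 ± 0.15 SE, adjusted p = 6.58e-04). Atp5e, the ε subunit of ATP synthase, fell from between 151 and 191 to between 68 and 125 CPM (log2 difference -0.87, adjusted p = 1.13e-05), Ndufa2 of complex I from between 114 and 149.9 to between 67.4 and 96 CPM (log2 difference -0.65, adjusted p = 8.39e-04) and Ndufa7 from between 244 and 329 to between 139 and 194 CPM (log2 difference -0.65, adjusted p = 9.98e-04). Leaving out single libraries gave 13 to 27 lower genes, 13 without exercised heterozygote 4, and removing the composition and length trends gave 12. Exercise in the wild type gave 4 higher and 18 lower. Of 38 genes that replicate, transcribe and translate the mitochondrial genome, Gabpa was called higher and Polg and Polrmt lower. That is 7.89% called, against 8.82% of all genes tested. Gabpa lost its call without regular-activity heterozygote 4 or 5 or exercised heterozygote 1, 2, 3 or 5 (adjusted p up to 0.103), Polg without regular-activity heterozygote 2 or exercised heterozygote 4 (up to 0.108) and Polrmt without regular-activity heterozygote 1, 2 or 4 or exercised heterozygote 4 or 5 (up to 0.0927). None of the 3 was called with the trends removed, at 0.28 (adjusted p = 0.0754), -0.36 (adjusted p = 0.0976) and -0.16 (adjusted p = 0.599).

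Ribosomal protein mRNAs fell in greater number than the genes of any other list used here. Of 68 cytosolic ribosomal protein genes tested, 32 fell and 0 rose, against 3.48% and 5.34% of all genes tested, with a median of -0.352 log2. In 21 of the 68 every exercised library lay below, against 4.02% of all genes tested. The mean log2 CPM of the list was 6.61 to 6.97 at regular activity and 6.29 to 6.58 after exercise. Rpl13 of the large subunit read 241, 217, 205, 255 and 260.5 CPM at regular activity and 145, 136, 142, 104 and 106 CPM after exercise. The highest exercised library was below the lowest regular-activity one (log2 difference -0.89 ± 0.11 SE, adjusted p = 2.47e-06). Rpl6 fell from between 151 and 189.9 to between 95.9 and 124 CPM (log2 difference -0.68, adjusted p = 2.99e-05) and Rpl37a from between 63.9 and 81.2 to between 32.6 and 50.8 CPM (log2 difference -0.72, adjusted p = 7.66e-05). Rplp1, of the ribosome stalk, read 335, 424, 250.4, 417 and 395 CPM against 154, 145, 166, 290.2 and 155 CPM, with exercised heterozygote 4 above the lowest regular-activity library (log2 difference -0.998 ± 0.22 SE, adjusted p = 0.00444). Of the 68, 12 fell and 2 rose in the wild type. Processed pseudogenes share sequence with these mRNAs, and how reads were divided between the copies is not given in the sources used here. Of 507 pseudogenes of all kinds tested 52 rose and 3 fell, and those of ribosomal protein genes were not counted apart. The pseudogene share of counted reads was 0.61% ± 0.152 at regular activity and 1.12% ± 0.192 after exercise (SD, n = 5 each; two-sided exact permutation test, p = 0.00794, adjusted p = 0.0265 over 10 measures). Among heterozygotes it was lowest and highest where the mitochondrially encoded share was: 0.410% with 11.7% in regular-activity library 2 and 1.44% with 38.1% in exercised library 2. At similar mitochondrial shares it was 0.717% with 26.7% in regular-activity library 5 and 0.934% with 26.2% in exercised library 1. A link between the 2 shares was not tested.

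Replication-dependent histone genes, whose mRNAs end in a stem-loop in place of a poly(A) tail, were lower as well: 6 of 25 tested fell and 0 rose. Over all genes tested 3.48% fell and 5.34% rose, and the median of the list was -0.789 log2. Hist1h4c read 18.5, 20.6, 20.7, 21.4 and 16.5 CPM at regular activity and 9.88, 5.25, 10, 9.22 and 8.42 CPM after exercise, with no overlap (log2 difference -1.19 ± 0.25 SE, adjusted p = 0.00229). Hist1h2bc fell from between 30.3 and 47.8 to between 17.7 and 24.8 CPM (log2 difference -0.91, adjusted p = 2.18e-04) and Hist1h3e from between 6.95 and 13.2 to between 3.32 and 6.15 CPM (log2 difference -1.21, adjusted p = 0.00141). Histone genes are near copies of each other, so the split between members is uncertain. The count was 6 to 8 in every single-library omission and 6 with the composition and length trends removed, and in the wild type 10 fell.

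Small structural RNAs moved in both directions, some of them by more than 2 log2. Of 26 tested nuclear-retained and small RNAs 4 rose and 4 fell, or 30.8% called against 8.82% of all genes tested. Rn7s2, a gene for the 7SL RNA of the signal recognition particle, read 52.8, 77, 67.3, 92.8 and 63.6 CPM at regular activity and 432, 370.4, 410.1, 298 and 391 CPM after exercise. It rose by a factor of 5.38 (log2 difference 2.43 ± 0.26 SE, adjusted p = 1.78e-06), with the groups far apart. Its near-identical copy Rn7s1 rose by 2.71 log2 (adjusted p = 8.78e-04), and by 1.599 without exercised heterozygote 3, the highest library; the reads of the pair cannot be told apart with confidence. Rn7sk, which holds the elongation factor P-TEFb inactive, read 7966, 8780, 9225, 11347 and 10090 CPM against 4451, 3610, 4322, 3799 and 3798 CPM. It fell to a narrow band far below the regular-activity libraries (log2 difference -1.25 ± 0.12 SE, adjusted p = 6.4e-08). Scarna13, a guide RNA of Cajal bodies, fell from 41.3, 53.9, 60.8, 75 and 57.5 CPM to 28.6, 20.7, 22.1, 21.3 and 24.1 CPM (log2 difference -1.31 ± 0.14 SE, adjusted p = 6.79e-07). Rmrp, the RNA of RNase MRP, rose with adjusted p = 0.0277 and lost the call without regular-activity heterozygote 1, 3 or 5 or exercised heterozygote 1 or 3 (adjusted p up to 0.081). Terc, the RNA of telomerase, was 0.817 to 1.98 and 0.0691 to 0.350 CPM and Rnu1b1, a U1 gene, 0 to 0.222 and 0.346 to 1.26 CPM, too few reads to give a fold. In the wild type 3 of the list rose and 4 fell. The share of reads in the annotation class of miscellaneous RNA was 1.06% ± 0.142 in regular-activity and 0.463% ± 0.0832 in exercised heterozygotes (SD, n = 5 each; two-sided exact permutation test, p = 0.00794, adjusted p = 0.0265 over 10 measures).

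Differences followed transcript length and base composition across genes in both genotypes. In heterozygotes the median log2 difference was -0.128, -0.0549, 0.00743 and 0.0943 from the shortest to the longest of 4 bins of 13057 protein-coding genes with a length, and 0.132, 0.0488, -0.0632 and -0.199 from the lowest to the highest of 4 bins of GC content. In the wild type the outer bins were -0.122 and 0.118 by length and 0.171 and -0.203 by GC content. Ribosomal protein and respiratory chain mRNAs are short, and 24 of 68 and 12 of 77 of them were lower once each library's trends on both were removed. The part of these trends in the gene groups was not tested beyond the values given with the trends removed.

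**Figure D4:**
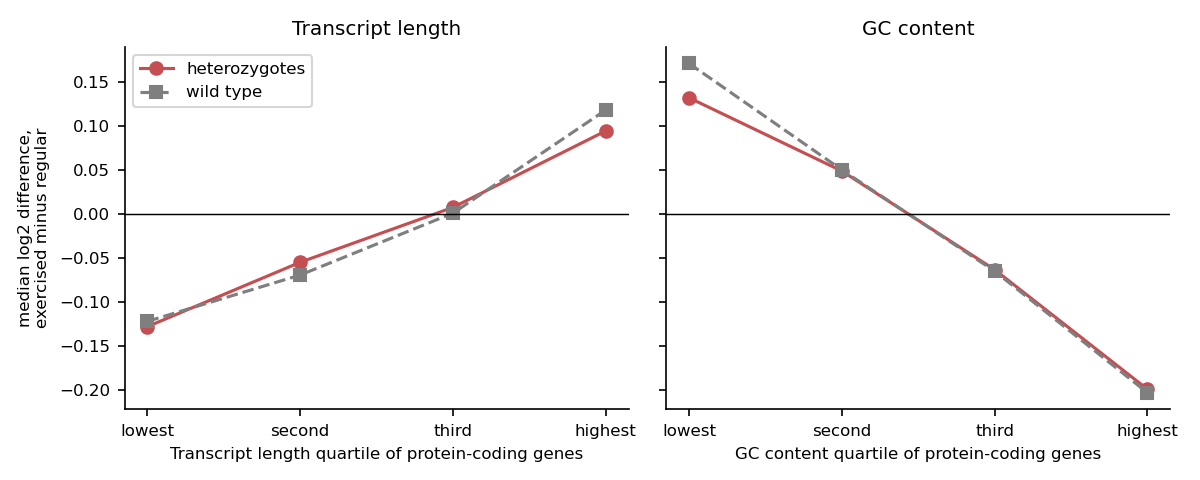
Median log2 difference between exercised and regular-activity libraries by bin of transcript length and of GC content, for heterozygous and wild-type myocytes at 6 months. The medians rise with length, from -0.128 to 0.0943 in heterozygotes, and fall with GC content, from 0.132 to -0.199, in both genotypes.

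Among 23 tested clock and clock-output genes 4 were called higher and 1 lower, or 21.7% against 8.82% of all genes tested. Arntl, which encodes the clock activator BMAL1, was 1.44, 11.4, 0.721, 13.7 and 17.5 CPM in the regular-activity libraries and 1.84, 1.11, 1.82, 2.84 and 1.33 CPM after exercise (log2 difference -2.31 ± 0.60 SE, adjusted p = 0.015). The regular-activity libraries fell into high and low values, with libraries 1 and 3 as low as the exercised ones, so the groups overlapped. Cry2, a clock repressor, read 14.7 to 28.3 against 31.3 to 33.8 CPM (log2 difference 0.54, adjusted p = 0.0192) and Wee1, a cell cycle kinase under clock control, 27.6, 12, 24.1, 14.8 and 9.58 against 32.1, 27.7, 25.2, 33.3 and 32.4 CPM (log2 difference 0.77, adjusted p = 0.0326). Regular-activity libraries 1 and 3 were again the closest to the exercised ones for Wee1. Cry2 lost its call without regular-activity heterozygote 4 or 5 or exercised heterozygote 1, 2 or 5 (adjusted p up to 0.0989), Wee1 without regular-activity heterozygote 2, 4 or 5 or exercised heterozygote 1, 2, 4 or 5 (up to 0.116), Usp2 without regular-activity heterozygote 4 or 5 or exercised heterozygote 1, 2 or 5 (up to 0.0898) and Rora without regular-activity heterozygote 4 or exercised heterozygote 5 (up to 0.0726) and with the composition and length trends removed (0.302, adjusted p = 0.132). Arntl was not called when only the groups compared were fitted or with limma-voom (adjusted p up to 0.181). The number of higher genes was 0 to 5 with single libraries left out, at 0 without regular-activity heterozygote 4 or exercised heterozygote 5 and 1 without regular-activity heterozygote 5 or exercised heterozygote 1 or 2. Time of collection is not given in the sources used here, and no gene of the list was called in the wild type.

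Matrix and non-myocyte genes hinged on exercised heterozygote 4. In bulk samples fewer cells of a type and less RNA per cell cannot be told apart. Of 43 extracellular matrix genes tested 2 fell and 0 rose, against 3.48% and 5.34% of all genes tested, with a median of -0.333 log2. When exercised heterozygote 4 was left out, 21 of the list fell and 0 rose, with a median of -1.13. Of 19 fibroblast markers 0 were called with all libraries and 9 fell without that library, and of 15 macrophage and monocyte markers 0 were called and 5 fell. Col1a1, the main fibrillar collagen chain, read 18.5, 16.1, 18.7, 13.1 and 18.9 CPM at regular activity and 4.35, 5.74, 3.36, 26.4 and 5.47 CPM after exercise. Exercised heterozygote 4 was above every other library and the other 4 were below all regular-activity ones. The difference was -0.898 (adjusted p = 0.142) with it and -1.85 (adjusted p = 1.85e-05) without it. Col3a1 read 167, 124, 184, 126 and 141 CPM against 23, 44, 42.1, 229 and 38.3 CPM, with the same library high, at -0.98 (adjusted p = 0.165) with it and -2.01 (adjusted p = 4.56e-05) without it. C1qc, a complement gene of tissue macrophages, was 5.31 to 12.9 against 1.34 to 8.28 CPM, at -1.07 (adjusted p = 0.11) and -1.68 (adjusted p = 0.00811). The mean log2 CPM of the fibroblast list was 4.14 to 4.83 at regular activity, 5.25 in exercised heterozygote 4 and 2.63 to 3.61 in the other 4 exercised libraries. Macrophage markers averaged 1.51 to 2.46, 2.75 and 0.0508 to 0.936. In the wild type the matrix list averaged 3.48 to 3.69 at regular activity against 4.2 to 4.72 in heterozygotes. After exercise it averaged 2.71 to 4.48 in the wild type (median 3.03). Fibroblast markers in the wild type averaged 3.54 to 3.88 at regular activity and 2.38 to 4.43 after exercise (median 3.13). In both lists the exercised wild type thus had a lower median and a highest library above the regular-activity range.

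**Figure D5:**
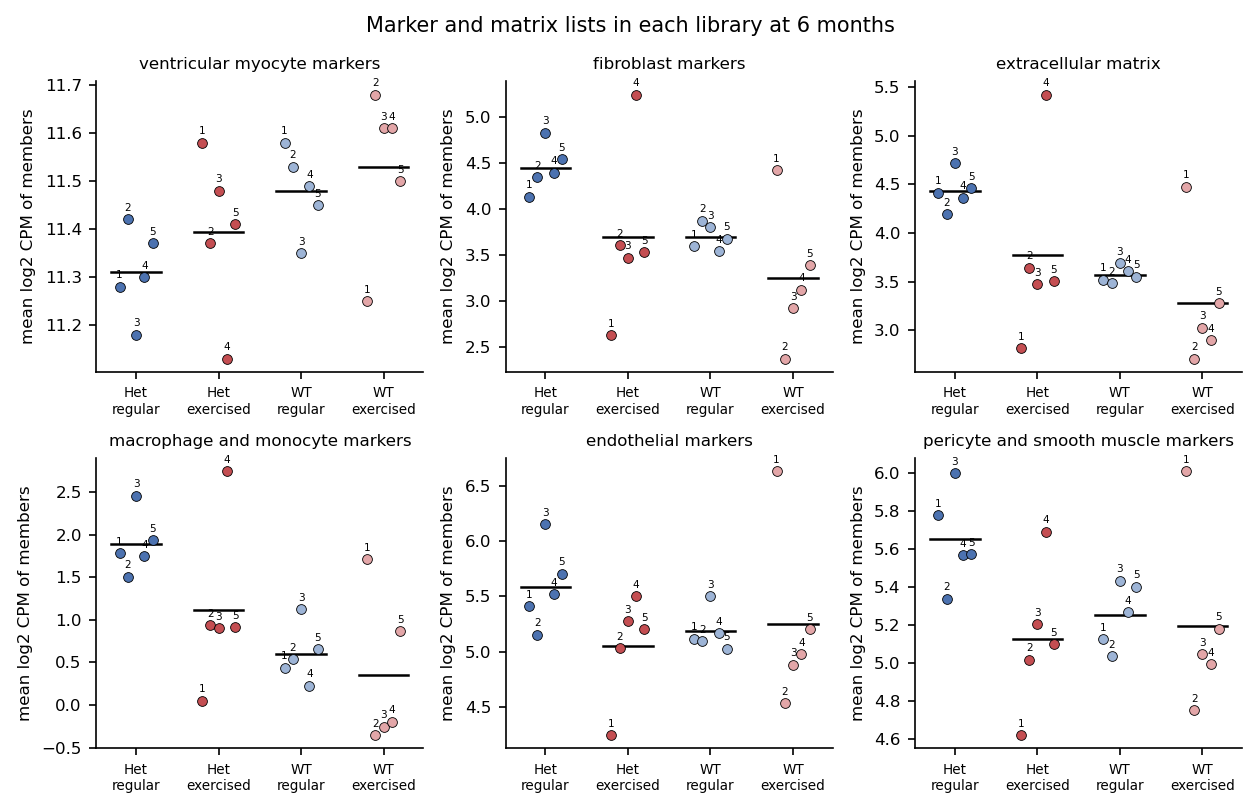
Mean log2 CPM of the ventricular, fibroblast, extracellular matrix, macrophage, endothelial and pericyte lists in each library at 6 months; points carry replicate numbers and bars are group means. Exercised heterozygote 4 lies above the other exercised heterozygotes in the non-myocyte lists, at 5.25 against 2.63 to 3.61 for fibroblast markers.

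The 2 matrix genes called with all 10 libraries did not depend on that library. Col6a3, a chain of the pericellular collagen VI, read 24.6, 29.4, 34.2, 32.7 and 27.2 CPM at regular activity and 6.03, 8.99, 8.39, 22.1 and 9.38 CPM after exercise. Every exercised library was below, with library 4 the highest of them (log2 difference -1.42 ± 0.37 SE, adjusted p = 0.0165). Serpinh1, the collagen chaperone HSP47, read 208, 212, 233, 228 and 215 CPM against 131, 133, 124, 105 and 121 CPM, a separation in which library 4 was the lowest (log2 difference -0.83 ± 0.14 SE, adjusted p = 1.65e-04). Myh7 and Nppa were high in exercised heterozygote 4 as well. Myh7, the slow myosin heavy chain of the fetal heart, read 452, 934, 522, 482 and 599 CPM against 1139.5, 808, 631, 8369.7 and 728 CPM. Library 4 was far above all others, and the difference of 1.97 (adjusted p = 0.0367) was 0.47 (adjusted p = 0.525) without it. Myh7 also lost its call without regular-activity heterozygote 1, 3, 4 or 5 or exercised heterozygote 4. Nppa, atrial natriuretic peptide, was 175, 53.6, 74.5, 81.5 and 129 CPM against 127, 68, 43.7, 1329 and 164 CPM, at 1.75 (adjusted p = 0.297) with library 4 and -0.03 (adjusted p = 0.99) without it. Nppb was 185 to 843 and 149 to 669.7 CPM (log2 difference -0.61, adjusted p = 0.381), at -1.12 (adjusted p = 0.0503) without library 4, and Myh6, the adult fast myosin, 18503 to 35671 and 24028 to 39134 CPM (log2 difference 0.29, adjusted p = 0.318). Uchl1, a deubiquitinase of the wall stress list, was 4.28 to 6.21 and 5.53 to 41.8 CPM and lost its call without regular-activity heterozygote 1, 4 or 5 or exercised heterozygote 4 (adjusted p up to 0.298); its difference was 1.45 log2, and 0.52 (adjusted p = 0.298) without library 4.

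Immune genes were low in level. Of 32 interferon-induced genes 3 fell and 0 rose, or 9.38% called against 8.82% of all genes tested, with a median of -0.658 log2. With the composition and length trends removed 0 were called, as also without regular-activity heterozygote 2 or 3 or exercised heterozygote 1 or 2, and 1 was called without exercised heterozygote 4. Psmb9, an immunoproteasome subunit, read 5.12, 11.8, 13.5, 6.62 and 5.14 CPM at regular activity and 2.68, 3.46, 4.62, 2.84 and 3.03 CPM after exercise, with the groups apart (log2 difference -1.34 ± 0.39 SE, adjusted p = 0.0277). Psmb9 lost its call without regular-activity heterozygote 2 or 3 or exercised heterozygote 1, 2, 4 or 5 (adjusted p up to 0.0931), Irf1 without regular-activity heterozygote 2 or 3 or exercised heterozygote 1, 2, 4 or 5 (up to 0.118) and Ifi27 without regular-activity heterozygote 2, 3, 4 or 5 or exercised heterozygote 1, 2 or 3 (up to 0.0849). Of 29 inflammation genes Socs3 and Relb fell. Relb, a subunit of noncanonical NF-κB, read 8.59, 12.1, 11.3, 7.57 and 10.1 CPM against 5.69, 4.91, 5.38, 6.86 and 4.73 CPM without overlap (log2 difference -0.84 ± 0.20 SE, adjusted p = 0.00529). Socs3, the feedback inhibitor of gp130 cytokine signalling, fell from between 24.4 and 67.8 to between 5.78 and 19.2 CPM (log2 difference -1.54, adjusted p = 0.0204), and without regular-activity heterozygote 1 its adjusted p was 0.0626. With the trends removed Socs3 was -1.25 (adjusted p = 0.0593). H2-Ab1, a class II antigen gene of antigen-presenting cells, was 4.02, 13.8, 20.6, 9.09 and 6.66 CPM and 1.76, 2.07, 4.96, 4.91 and 3.47 CPM (log2 difference -1.65, adjusted p = 0.0298). Exercised heterozygotes 3 and 4 lay within the regular-activity range, and the call was lost without regular-activity heterozygote 2 or 3 or exercised heterozygote 1, 2 or 5 (adjusted p up to 0.111) and with the trends removed (-1.42, adjusted p = 0.0692). Of the 15 macrophage markers 0 were called with all libraries and 5 fell without exercised heterozygote 4, and their part in these differences was not tested.

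Of 27 p53 targets 4 rose and 1, Btg2, fell, or 18.5% against 8.82% of all genes tested; 0 rose without exercised heterozygote 2, and 2 without regular-activity heterozygote 2, 3 or 4 or exercised heterozygote 1, 3 or 5. Mdm2, the negative regulator of p53, rose from between 43.7 and 49.6 to between 55.5 and 76.9 CPM (log2 difference 0.42, adjusted p = 0.0141), with a call lost without exercised heterozygote 2 (adjusted p = 0.107). Dag1, dystroglycan, was the 1 called gene of 23 of the dystrophin complex (adjusted p = 0.0279), and it lost the call without regular-activity heterozygote 3, 4 or 5 or exercised heterozygote 1, 2, 4 or 5 (up to 0.166). Dlat, a subunit of pyruvate dehydrogenase, was the 1 called gene of 38 of the citric acid cycle and branched-chain amino acid list (adjusted p = 0.0209), lost without regular-activity heterozygote 3 or 4 or exercised heterozygote 1, 2, 3 or 5 (up to 0.108). Bmpr2, a BMP receptor, was the 1 called of 33 TGF-beta and BMP genes (log2 difference 0.46, adjusted p = 0.0123), lost without exercised heterozygote 5 (adjusted p = 0.0524). Removal of the composition and length trends also ended the calls of Dlat (0.43, adjusted p = 0.0597), Bmpr2 (0.300, adjusted p = 0.0889) and Nos3 (-0.53, adjusted p = 0.0849). Of 36 chromatin regulators 1 rose, of 28 cell cycle genes 1 fell, and of 32 angiogenesis genes Ednra rose and Nos3 fell. Among 34 sodium and potassium channel genes 2 rose and 0 fell, with 4 higher without exercised heterozygote 4 and 1 without exercised heterozygote 2 or 3.

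Most of these differences had the same sign in the wild type, a comparison that shares no library with that in heterozygotes. There 724 of the genes tested rose and 787 fell. Of the 833 genes higher in heterozygotes 413 were also called higher in the wild type, which is 49.6% of the first list and 57.0% of the second, and of the 542 lower ones 303 were called lower, 55.9% and 38.5%. The sign in the wild type was the same for 799 of the 833 and 523 of the 542. The share with the same sign over all genes tested was not taken. Regular-activity wild-type libraries held 11 or 18 spike-in values and exercised ones 0, the same split as in heterozygotes. The shared sign therefore cannot tell exercise from whatever else differed between those sets of libraries. The test of the difference between the exercise effects of the genotypes called 0 genes higher and 2 lower, 0.0128% of the genes, with 765 at an unadjusted p under 0.05. The 2 were Aqp6, an aquaporin, and the pseudogene Rps2-ps10, and both lay below the level set for named genes. Aqp6 was 0.127, 15, 0.111, 10.2 and 6.01 CPM in regular-activity heterozygotes and at most 0.71 CPM after exercise, and in the wild type it was 0 to 0.145 CPM and 0.474 to 16.9 CPM. Rps2-ps10 was 0.677 to 1.02 and 0.839 to 1.18 CPM in heterozygotes and 0.654 to 1.64 and 0.764 to 48.8 CPM in the wild type. The level of Aqp6 was spread over orders of magnitude within groups, and the size of its fitted difference depends on the prior count. Without both libraries that stood apart, exercised heterozygote 4 and exercised wild type 1, 0 genes were called.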

How the data were processed

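Total RNA was measured by sequencing of ribosome-depleted, strand-specific paired-end libraries of cardiac myocytes, 30 libraries in 6 groups of 5. The authors deposited whole-number counts of reads per gene for all libraries; the tools named in the submitters' processing notes are Trim Galore, HISAT2 and featureCounts, with the build mm10. Versions, annotation and strand setting are not given in the sources used here. Of 52573 entries 23 were spike-in rows and were left out of library sizes and tests.

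Counts were tested with edgeR 4.0.16 (R 4.3.3): genes kept by filterByExpr over the 6 groups (15587), TMM scaling, 1 quasi-likelihood fit of all 30 libraries (24 residual degrees of freedom), Benjamini-Hochberg adjustment over all genes tested and a threshold of 0.05. Positive differences mean higher after exercise. CPM use TMM-scaled library sizes, and log2 CPM a prior count of 2. The standard error is the log2 difference divided by the square root of F. Shares and depth were compared with two-sided exact permutation tests. A gene list is described by its counts and median. The contrast with the wild type and the interaction were taken from the same fit. Promoters came from RefSeq (GRCm38.p6), matched by symbol for 10659 of 15583 symbols.

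Named genes were Dsp, Nppa, Nppb, Myh6, Myh7, 4 further desmosome genes and Gja1, up to 10 called genes a direction with the largest difference among those with mean log2 CPM of at least 1 and 9 of 10 libraries on their group's side, up to 6 a direction with mean log2 CPM of at least 7, and up to 4 called members of each list. One gene that this rule names is not reported here. The members and lists were chosen with earlier results of these data known. Ppargc1a, Nr4a1, Mef2a, Xirp2, Canx, Wee1, Mdm2, Terc, Rmrp, Rnu1b1, Jun, Jund, Klf2, Dusp1, Zfp36, Hspa8, Dag1, Dlat, Uchl1, mt-Nd3, mt-Nd4, mt-Cytb, Rplp1, Tnnc1, Bmpr2, Aqp6, Rps2-ps10 and the list members given only as called or not called were added after their values were seen.

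Alternatives were other scaling factors, no low-count filter, dominant genes removed, only the groups compared, the replicate number as a block, Xist as a covariate, limma-voom (limma 3.58.1), DESeq2 1.42.0, a threshold of 0.01 and each library left out; the removal of GC content and length trends and of the libraries that stand apart was added after seeing the data. On simulated data with 50 genes changed at each fold, 13 were recovered at 1.5-fold, 31 at 2-fold, 35 at 3-fold and 38 at 4-fold in the heterozygote comparison (15198 genes tested). All other genes had the same mean in every group. The simulation held no library that stands apart, no composition or length trend and no difference between library sets. These rates therefore describe that setting and not the measured data.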

Additional observations from a re-analysis of the deposited data

Results flagged for a closer look

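Within groups of 5 libraries, 312 sets of values were examined for a highest or lowest library whose gap to its neighbour took more than 0.71 of the group's range, and 28 had one. For genes the gap and range were taken on log2 CPM with a small offset, and for library measures on the values themselves. The gene values printed below are plain CPM, on which other sets could pass. Chance gives about 1 in 20 for independent sets chosen before their values are seen. That rate does not apply here. Most sets were genes named in the report, some of them added after their values were seen, and genes of 1 library can move together. Exercised heterozygote 4 was the library in 14 of the 28.

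That library was the highest of the exercised heterozygotes for Myh7 (8370 CPM), Xirp2 (4451), Casq2 (1701), Ctnnb1 (334), Rplp1 (290), Col3a1 (229), Uchl1 (41.8) and Col1a1 (26.4 CPM). It was the lowest for Dlat (482 CPM), Hk2 (353), Gja1 (233), Ndufa7 (139), Esrrg (41.7) and Dsc2 (33.8 CPM). Its levels of matrix, fibroblast and macrophage markers stood above those of the other exercised heterozygotes.

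Among the other exercised heterozygotes, library 1 was lowest for Socs3 (5.78 CPM) and Cyr61 (115 CPM), library 2 was lowest for Ryr2 (2411 CPM) and Hist1h4c (5.25 CPM), and library 5 was highest for Ier2 (27.3 CPM), an immediate early gene. In the regular-activity heterozygotes, library 5 was lowest for Hspa1a (14.4 CPM) and highest for Tnnt2 (3517 CPM), Pdia3 (23.9 CPM) and the share of ribosomal RNA in counted reads (0.511%). Library 4 was highest for genes detected (22989) and the share of miscellaneous RNA (1.31%) and lowest for Mdm2 (43.7 CPM). Library 2 was highest for Lpl (3202 CPM), and library 3 for C1qc (12.9 CPM).

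The exercise effect differed between the genotypes for 2 genes by the interaction test. For Aqp6 the effect in heterozygotes minus that in the wild type was -13.03 log2, and for Rps2-ps10 it was -4.998 log2 (edgeR, adjusted p = 0.0173 for both). The Aqp6 difference rests on libraries at or near 0 and depends on the prior count. Rps2-ps10 was 0.764 to 48.8 CPM in the exercised wild type and near 1 CPM in the other 3 groups at 6 months, and 1 of the 5 exercised wild-type libraries was at the low end.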

How the results depend on the processing

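The count of genes called in heterozygotes was 1375, and it was 816 without a low-count filter, 2835 with limma-voom and 578 at a threshold of 0.01; other scalings, DESeq2, the Xist covariate and the other settings gave counts within 1.5 times of it. With each library left out it ran from 897 (without regular-activity heterozygote 4) to 1423. In the wild type (1511 genes) it was 2769 with limma-voom, 674 at a threshold of 0.01 and 758 with the GC content and length trends removed. The interaction called 2 genes, and 5 without a low-count filter, 13 with limma-voom, 9 with DESeq2, and 0 with only the groups compared, with the replicate block, at a threshold of 0.01 and without both libraries that stand apart. Leaving out single libraries gave 0 to 7 interaction genes, the latter without exercised wild type 5. The cause of these moves was not tested.

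Same-numbered exercised and regular-activity heterozygotes did not deviate together (correlations of their deviations 0.00275, -0.0161, -0.0252, 0.0108 and -0.09), and 0 of 5 in either group correlated best with their own number, so the numbers do not pair them; the replicate block gave 1193 genes in heterozygotes and 1339 in the wild type.

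Genes that were not called changed sign in some settings. Dmd was -0.001515 log2 with upper-quartile factors, -0.01346 without a filter, -0.046 with limma-voom, -0.1149 with the GC content and length trends removed and -0.1305 to 0.08192 with single libraries left out. Single omissions gave -0.03169 to 2.032 for Nppa, -0.3227 to 0.001283 for Ctnna3, -0.02766 to 0.1945 for Exoc2 and -0.0699366 to 0.0524843 percentage points for the ribosomal RNA share. Without both libraries that stand apart Nppa was -0.05532 and Pcolce -0.02377. Jund, called in the main comparison, was 0.04106 with the trends removed.

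Spike-in values were present in the regular-activity heterozygote libraries and in none of the exercised ones, and detection was not examined by level of expression. Of 128 called genes among 145 examined one by one, 78 were called in every single-library omission, 67 in every other setting, and 36 lost the call with the trends removed.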

Other observations

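A few called genes were not named in the sections above, though some of them are members of lists used there or counted below. Snhg14, the long noncoding host transcript of the imprinted Prader-Willi and Angelman interval, was 1.69, 0.898, 1.11, 1.90 and 1.52 CPM in regular-activity and 2.93, 6.15, 3.85, 3.67 and 3.54 CPM in exercised heterozygotes (edgeR, log2 difference 1.49, adjusted p = 0.00864), with every exercised library above. Sstr3, a somatostatin receptor, was 0.898 to 2.88 and 3.46 to 7.75 CPM (log2 difference 1.67, adjusted p = 0.0367) and lost its call without regular-activity heterozygote 1, 2, 4 or 5 or exercised heterozygote 1, 2, 4 or 5 (adjusted p up to 0.122). Igfbp4, which binds insulin-like growth factors, was 23.9 to 38.2 and 8.96 to 23.4 CPM (log2 difference -1.15, adjusted p = 0.0257) and lost its call without regular-activity heterozygote 3 or 4 or exercised heterozygote 1, 2 or 5 (adjusted p up to 0.0689). Steap4, a metalloreductase, was 19.9 to 37 and 6.45 to 17.3 CPM (log2 difference -0.97, adjusted p = 0.0423) and lost its call without regular-activity heterozygote 2, 3, 4 or 5 or exercised heterozygote 1, 2 or 5 (adjusted p up to 0.131). Ppp2r5a, a regulatory subunit of protein phosphatase 2A, fell from between 127 and 149 to between 87.3 and 114 CPM (log2 difference -0.38, adjusted p = 0.0122), with a difference of -0.33 (adjusted p = 0.068) once the composition and length trends were removed.

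Other lists held these counts. Of 31 Wnt genes 3 rose and 2 fell (16.1% called), of 23 Hippo and YAP genes 2 rose and 2 fell (17.4% called), of 33 insulin and IGF genes 1 rose and 1 fell, and of 22 glucocorticoid-responsive genes 1 rose and 2 fell. Of 24 hypoxia-responsive genes 2 rose and 0 fell, of 33 antioxidant genes 1 rose and 1 fell, and of 12 atrial markers 0 were called. Over all genes tested 8.82% were called, 5.34% higher and 3.48% lower.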
